A study of Mus musculus with 18 samples.

Results

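Cytochrome P450 genes encode heme enzymes that add an oxygen atom to fatty acids, sterols, retinoids, vitamin D, drugs and dietary chemicals. Most sit in the endoplasmic reticulum and take electrons from the reductase encoded by Por, while a few sit in mitochondria and take them from a ferredoxin. Several families are switched on by receptors that bind foreign chemicals or lipids, among them the aryl hydrocarbon receptor (Ahr), the pregnane X receptor (Nr1i2) and the constitutive androstane receptor (Nr1i3), and in the intestine absorptive enterocytes are known as the main cells that express the families CYP2, CYP3 and CYP4.

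The members were every gene whose symbol starts with Cyp and a number, without a hyphen and leaving out Cyp51, and they numbered 80 of the 18838 genes listed. Of these, 71 were listed in the crypt table, 71 in the day 1 table and 72 in the day 3 table, and 62 were listed in all 3. By family, 3 belonged to CYP1, 41 to CYP2, 8 to CYP3 and 16 to CYP4. A further 3 act on sterols and bile acids, 3 on steroid hormones, 2 on vitamin D and 3 on retinoic acid, and 1 (Cyp20a1) has no assigned substrate.

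The libraries came from duodenal crypts of wild-type (WT, Mtgr1+/+) mice and of mice labelled Mtgr1-/-, in which the gene of a transcriptional co-repressor is knocked out in all cells, at an age of 8 to 12 weeks. RNA was sequenced from crypts on the day of isolation and from enteroids grown from crypts of the same mice in medium with EGF, noggin and R-spondin, collected 24 h (day 1) and 72 h (day 3) after plating. There were 3 mice of each genotype, each sampled at all 3 times, which gave 18 libraries of poly(A) RNA. Littermates of both sexes were used, and the labels do not give the sex of a library.

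Reads could be recovered for 16 libraries, which held 22035316 to 28621990 reads on genes, with a median of 26258539. The targeted gene is listed as Cbfa2t2. Its normalized counts in crypts were 614, 523 and 595 in WT libraries against 697, 466 and 534 in libraries labelled Mtgr1-/-. Its log2 fold change was -0.05 there, 0.37 at day 1 and 0.06 at day 3, with limma adjusted p = 0.917, 0.0557 and 0.686. A count over all exons does not check a deletion of some of them, so genotype means what each library was labelled, and every direction below rests on those labels. Among crypts, the libraries numbered 3 stood apart: the mitochondrial transcript COX1 took 5.61% of counts in the WT library and 4.78% in the library labelled Mtgr1-/-, against 2.62% to 2.76% in the other crypt libraries. The number of P450 genes called in crypts is therefore also given without them.

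P450 genes took a smaller share of crypt libraries labelled Mtgr1-/- than of WT ones, and a larger share of enteroid libraries labelled Mtgr1-/-. With each library scaled to a total of 1000000 counts (CPM), WT crypts held 3000.0, 3043 and 3278 CPM on P450 genes, and crypts labelled Mtgr1-/- held 2154, 1905 and 2923. At day 1, WT enteroids held 3468 to 4203 (mean 3945 ± 414, SD, n = 3) and enteroids labelled Mtgr1-/- held 8536 to 11695 (mean 10139 ± 1580.1), a ratio of 2.57. At day 3, the values were 2715 to 2927 in WT (mean 2841 ± 112) and 6149.9 to 8140.2 in the others (mean 6849 ± 1119), a ratio of 2.41. The genotypes did not overlap at any time, with crypts labelled Mtgr1-/- below WT and enteroids above. These shares were not tested, since an exact permutation test of 3 against 3 libraries cannot go below p = 0.1.

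**Figure D1:**
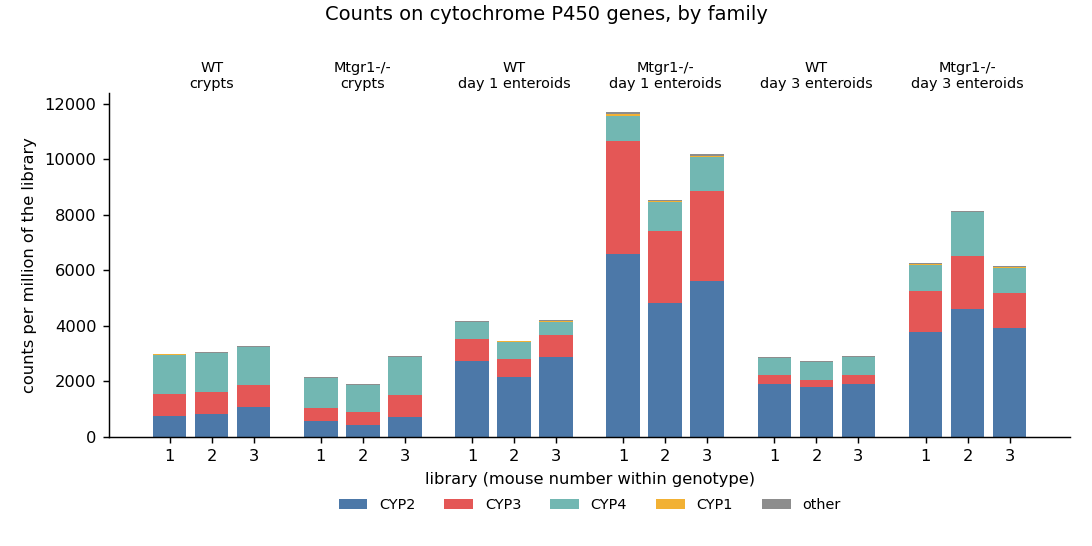
Stacked bars give the CPM of each library that fell on P450 genes (vertical axis), by family, for the 18 libraries (horizontal axis, mouse number within genotype). The enteroids labelled Mtgr1-/- hold 8536 to 11695 at day 1 and 6149.9 to 8140.2 at day 3, above each WT library of the same day.

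By its share of P450 counts, Cyp4f14, which hydroxylates fatty acids and leukotrienes, came first in all 6 crypt libraries (27.7% to 32.7%) and again in the 3 WT libraries of day 3 (14.7% to 15.7%). At day 1 the first was Cyp2b10 in the 3 WT libraries (15.9% to 17.9%) and Cyp3a13 in the 3 labelled Mtgr1-/- (up to 23.5%). At day 3 the libraries labelled Mtgr1-/- were divided, with Cyp2b10 first in numbers 1 and 3 and Cyp4f14 in number 2. Genes were then set side by side per length. In CPM per kilobase of exon, the level of Cyp4f14 in crypts was 394 ± 16.3 in WT and 295 ± 66.2 in libraries labelled Mtgr1-/- (SD, n = 3), ahead of Cyp3a13 at 180 ± 12 and 161 ± 44.9. On the same scale, Cyp2b10 led WT enteroids at day 1 with 316 ± 49.9, followed by Cyp2c66 (183 ± 32.9), Cyp2c29 (171 ± 48), Cyp4f14 (160 ± 22.7) and Cyp2c65 (159 ± 18), and the last 4 did not differ beyond their spread. In enteroids labelled Mtgr1-/-, Cyp3a13 came first at day 1 (731 ± 186), within its spread of Cyp2b10 (681 ± 107), and at day 3 Cyp2b10 (524 ± 47.5) led Cyp4f14 (347 ± 121) and Cyp3a13 (302 ± 41.6). In WT at day 3, Cyp2b10 (192 ± 9.3) and Cyp4f14 (179 ± 9.64) overlapped on this scale. The 3 tables were normalized separately, so these levels were set on the total of each library.

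The first question is which P450 genes differ between the genotypes at each time. Genes were tested with limma where the mean normalized count was at least 10, which held for 37 members among crypts, 40 among day 1 and 42 among day 3 libraries. The other members were low: 35 of the 80 passed at no time, with at most 24.5 normalized counts in any library. They include Cyp1a2, Cyp11a1, Cyp24a1, Cyp26a1 and Cyp27b1, whose values ranged from 0 to 24.5. Some tested members passed the filter through 1 genotype alone (their mean was under 10 in the other), which makes a difference more likely, so counts are also given without them.

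In crypts, 1 of 37 tested members was higher in libraries labelled Mtgr1-/- and 0 were lower at an adjusted p below 0.05 (limma). Over all genes tested in crypts, 4.73% passed, 1.58% higher and 3.15% lower. In day 1 enteroids, 28 of 40 were higher and 2 lower, beside 30% and 28.9% of all 12587 genes (58.9% in either direction). In day 3 enteroids, 27 of 42 were higher and 2 lower, beside 29.9% and 29.1% of 12782 genes (59% in either direction). The median log2 fold change of the tested members was -0.47 for crypts, 1.24 for day 1 and 1.16 for day 3, while the median over all genes was 0.01, -0.01 and 0.00. Of the members with a mean of at least 10 in both genotypes, 25 of 33 were higher and 1 lower at day 1, and 23 of 37 were higher and 1 lower at day 3, against 30.4% and 29.7% of all such genes higher. The genotypes did not overlap for 14 of 37 members in crypts, 33 of 40 at day 1 and 30 of 42 at day 3, where 25.5%, 68.1% and 68.8% of all genes tested did not. Leaving out any 1 library left 24 to 27 higher at day 1 and 25 to 27 at day 3.

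**Figure D2:**
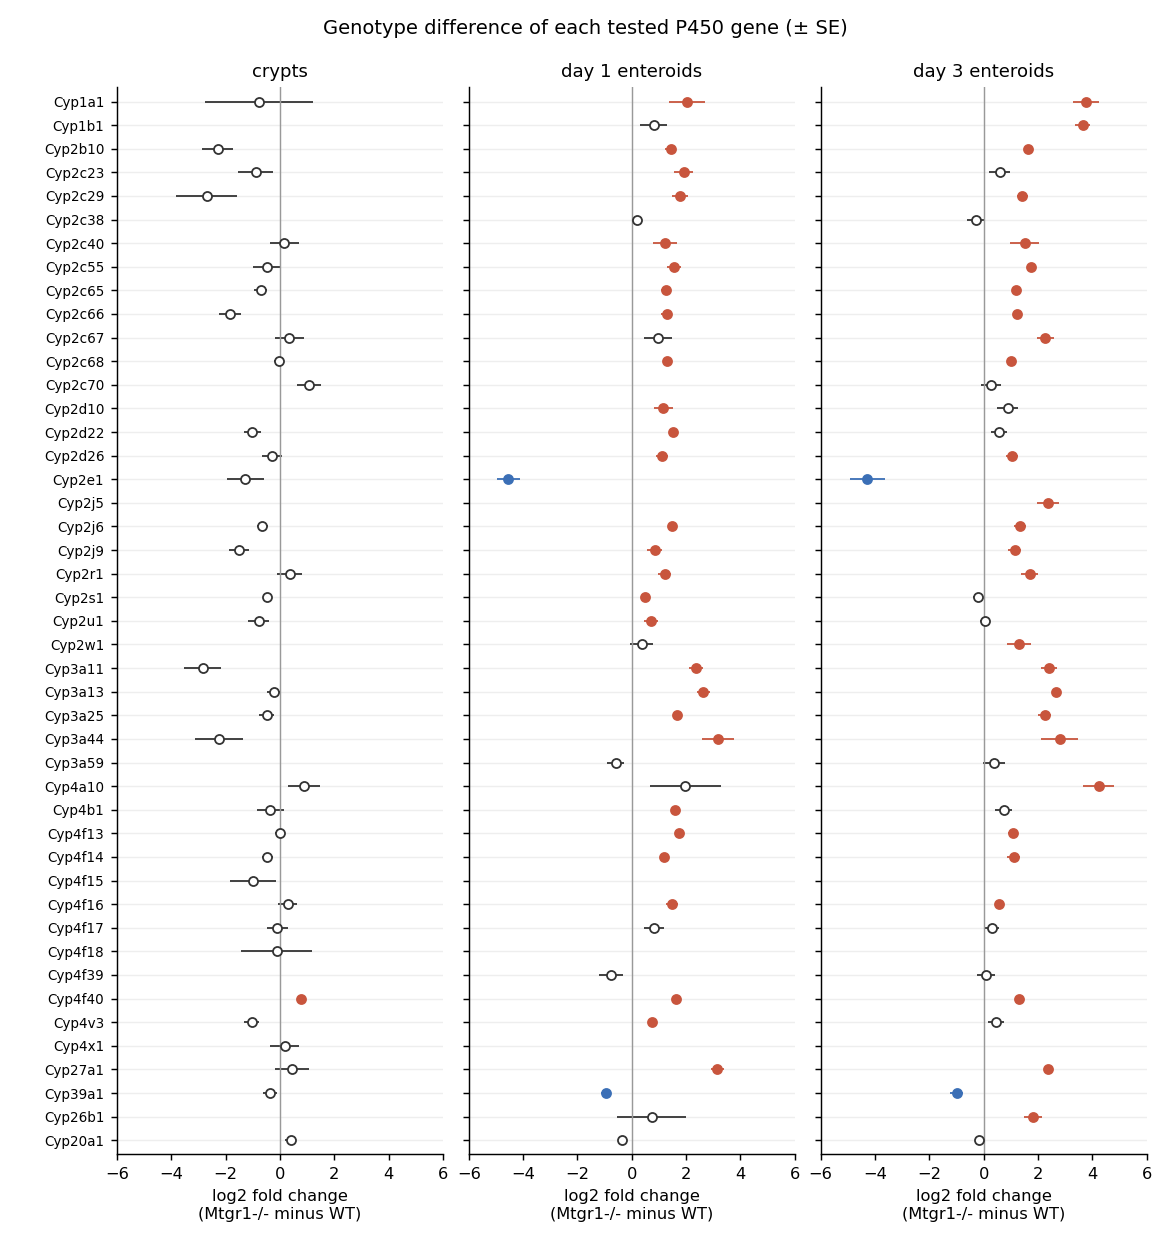
Points give the log2 fold change of each tested P450 gene (libraries labelled Mtgr1-/- minus WT, horizontal axis, bars ± SE, 3 libraries a group) in crypts, day 1 and day 3 enteroids; filled points passed an adjusted p of 0.05 (red higher, blue lower) and open points did not. The crypt panel has 1 filled point, while the enteroid panels have 30 and 29, and 2 of each are to the left of 0.

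The crypt count depended on the libraries kept. At an unadjusted p below 0.05, 11 members were lower and 2 higher in crypts labelled Mtgr1-/- (limma), where 9.92% of all genes tested were lower and 8.53% higher. Without the library labelled Mtgr1-/- numbered 3, 7 were lower at an adjusted p below 0.05 (Cyp2b10, Cyp2c65, Cyp2c66, Cyp2d22, Cyp3a11, Cyp3a25 and Cyp4f14), beside 266 of all 12980 genes. Without both libraries numbered 3, a fit added after seeing the data, 7 were also lower (Cyp2b10, Cyp2c65, Cyp2c66, Cyp2d22, Cyp4b1, Cyp4f14 and Cyp4v3), beside 327 of 12977 genes. On recovered reads, which leave out the WT library numbered 2, DESeq2 called 6 lower, beside 766 of 12980 genes, and edgeR called 0, beside 157. The 1 gene called higher was Cyp4f40 (chromosome 17 of GRCm38, 32658900 to 32676914), at 1664, 1575 and 1693 in WT against 2385, 2602 and 3555 (log2 fold change 0.77 ± 0.15 SE, limma adjusted p = 0.0377). That call was lost without any 1 of the WT libraries or the library labelled Mtgr1-/- numbered 2, with an adjusted p of 0.0617 to 0.139 (limma).

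The CYP3 genes, whose products oxidize steroids, bile acids and many drugs, were mostly higher in enteroids labelled Mtgr1-/-. Of 5 tested, 4 were higher at day 1 and the same 4 at day 3, and the fifth, Cyp3a59, had log2 fold changes of -0.60 and 0.38 (adjusted p = 0.148 and 0.454, limma). Of the 4 with a mean of at least 10 in both genotypes, 3 were higher on each day, against 30.4% and 29.7% of all such genes. Cyp3a13 (ENSMUSG00000029727.7, chromosome 5 of GRCm38, 137892932 to 137921619, minus strand) had 11358, 8818 and 10345 normalized counts in WT at day 1 and 79744, 41602 and 74459 in libraries labelled Mtgr1-/-. Every one of the latter was above each WT library, a mean 6.42-fold higher, and the log2 fold change was 2.63 ± 0.25 (adjusted p = 0.000207, limma). At day 3 it was 2.67 ± 0.14 (adjusted p = 9.46e-06, limma), while in crypts the groups overlapped (-0.22 ± 0.23, adjusted p = 0.666).

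Cyp3a11 (ENSMUSG00000056035.8, chromosome 5, 145854426 to 145879964, minus strand), the mouse gene most often used as a readout of the pregnane X receptor, lay on opposite sides of WT before and after plating. WT crypts had 3232, 3667 and 4134 normalized counts of it, and crypts labelled Mtgr1-/- had 160.1, 611 and 1349 (log2 fold change -2.84 ± 0.69), which did not pass (limma adjusted p = 0.0719). WT day 1 enteroids had 5330.0, 3575 and 5672, against 35482, 22088 and 18984 (2.37 ± 0.26, adjusted p = 0.000344), and at day 3 the log2 fold change was 2.41 ± 0.29 (adjusted p = 0.000318). The genotypes were apart at all 3 times, with the lower group in crypts being the higher one in enteroids. Cyp3a25 followed in enteroids with 1.67 ± 0.16 and 2.25 ± 0.23 at day 1 and day 3 (adjusted p = 0.000212 and 0.000161, limma). Cyp3a44 was also higher, but from few counts: 2.74, 4.17 and 6.70 in WT at day 1 against 65.3, 19.0 and 79.4, and it was tested only because of the latter. Of the distinct 50-base words of their exons, 26.8% in Cyp3a25 and 26.5% in Cyp3a44 also occur in other genes, so reads may have been split between paralogs, whereas Cyp3a13 shares none.

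**Figure D3:**
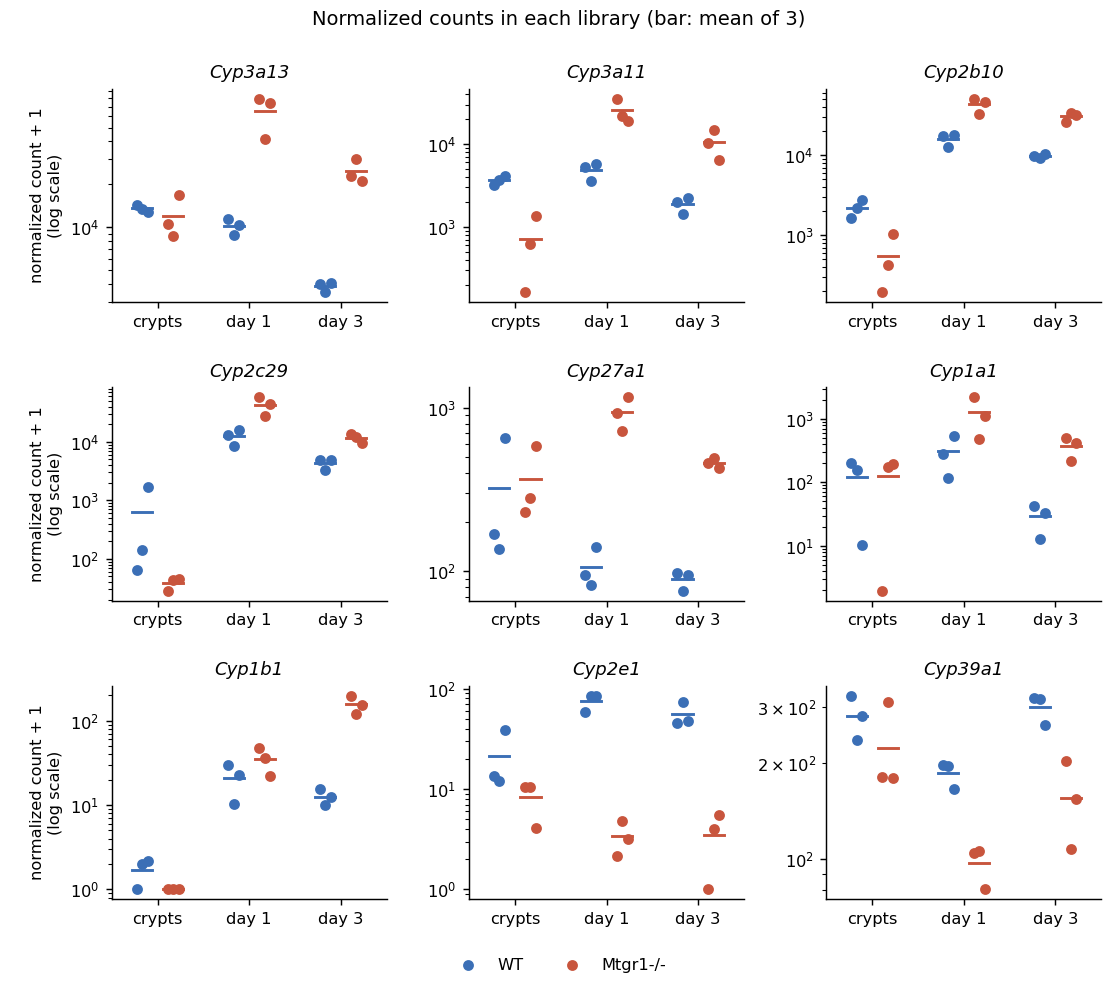
Each panel gives the normalized count plus 1 (log axis) of 1 gene in each library at the 3 times, with WT in blue, libraries labelled Mtgr1-/- in red and a bar at the mean of 3. For Cyp3a11 and Cyp2b10 the red points are all below the blue ones in crypts and all above them in enteroids, while for Cyp2e1 they are all below at each time.

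CYP2 is the largest family and the one with the most genes that changed. At day 1, 16 of 20 tested CYP2 genes were higher and 1 lower, beside 30% and 28.9% of all genes tested. At day 3, 14 of 22 were higher and 1 lower, beside 29.9% and 29.1%. With a mean of at least 10 in both genotypes, 14 of 16 were higher at day 1 and 12 of 19 at day 3. Of all such genes, 30.4% and 29.7% were higher. Cyp2b10 (ENSMUSG00000030483.14, chromosome 7, 25897620 to 25926624, plus strand), the classical target gene of the constitutive androstane receptor, had 1620.5, 2212 and 2787 normalized counts in WT crypts and 192, 419 and 1046 in crypts labelled Mtgr1-/-. As with Cyp3a11, these groups did not overlap, but the difference did not pass (-2.29 ± 0.57, adjusted p = 0.0758, limma). After 24 h the counts were 17395, 12617 and 17815 in WT against 50764, 32269 and 46682 (1.43 ± 0.21, adjusted p = 0.000983), and after 72 h the log2 fold change was 1.64 ± 0.12 (adjusted p = 2.84e-05). Its level was also higher after plating than before it in both genotypes, without a test across tables: in CPM, the mean was 86.5 in crypts and 667 at day 1 in WT, and 21.4 and 1439 in libraries labelled Mtgr1-/-.

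The 14 Cyp2c genes lie on chromosome 19 (39007019 to 44029208), and their products oxidize arachidonic acid and drugs. Of 9 tested at day 1, 7 were higher, and of 10 tested at day 3, 7 were higher, with none lower at either time. Beside them, 30% and 29.9% of all genes tested were higher. With a mean of at least 10 in both genotypes, 5 of 6 were higher at day 1 and 6 of 9 at day 3, beside 30.4% and 29.7%. The other calls came from genes that passed the filter through libraries labelled Mtgr1-/- alone. Cyp2c29 (ENSMUSG00000003053.17, chromosome 19, 39269405 to 39330713, plus strand) was low in most crypt libraries, at 62.3, 139.6 and 1714 in WT against 27.3, 41.9 and 44.7. At day 1 it reached 13361, 8508 and 15696 in WT and 58336, 28128 and 43743 in libraries labelled Mtgr1-/- (1.78 ± 0.30, adjusted p = 0.00194, limma). The WT crypt library numbered 3 alone held the 1714 counts, and Cyp2c29 in crypts did not pass (-2.70 ± 1.11, adjusted p = 0.259). Cyp2c55, Cyp2c65, Cyp2c66 and Cyp2c68 had log2 fold changes of 1.24 to 1.56 at day 1 and 1.02 to 1.73 at day 3, each with the groups apart. Cyp2c68 shares 43% of its 50-base words with other genes. Cyp2c38, between Cyp2c29 and Cyp2c67 on the chromosome, had 0.18 and -0.29 at day 1 and day 3 and did not pass (adjusted p = 0.364 and 0.476); it was named after its values were seen.

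**Figure D4:**
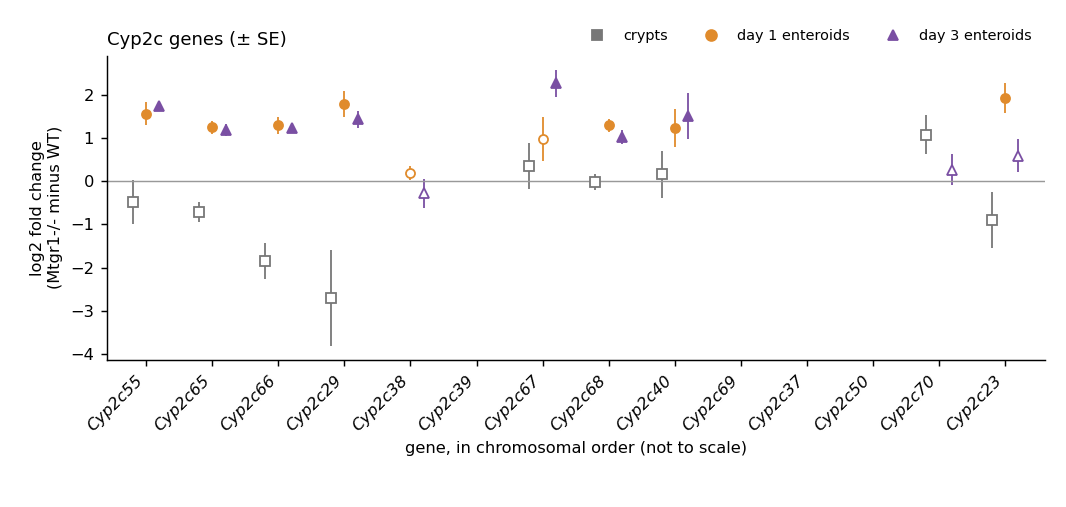
Points give the log2 fold change (libraries labelled Mtgr1-/- minus WT, vertical axis, bars ± SE, 3 libraries a group) of the Cyp2c genes in the order in which they lie on the chromosome, not to scale, with filled symbols past an adjusted p of 0.05; genes with no symbol were not tested. The crypt values of Cyp2c66 (-1.84) and Cyp2c29 (-2.70) lie below 0 and their enteroid values above 1.

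Promoters were compared because many neighbouring genes were higher together. RefSeq promoter windows, from 250 bases before to 50 after a transcript start in GRCm38.p6, were found for 67 of the 80 members, in 75 windows. The letters CAAAGTCCA, a sequence bound by the nuclear receptors HNF4A and HNF4G and searched on both strands, were in 10 of these 75 windows (13.3%) and in 0.475% of all 32851 windows. The 10 were 6 Cyp2c genes and 4 Cyp3a genes, which are paralogs and share sequence, so they are not independent cases. They were in 5 of the 30 members with a window that were higher in enteroids at day 1 or day 3 (Cyp2c40, Cyp2c65, Cyp2c67, Cyp2c68 and Cyp3a11) and in 1 of the 6 that were tested and were not (Cyp2c70), and 4 of the 10 were too low to test. With only 6 members not higher, and paralogs among the matches, these counts cannot compare how often the match occurs in either set. Cyp2c40 and Cyp2c67 share 60.3% and 52.8% of their 50-base words with other genes, and Cyp2c40 was called from few counts (means of 6.33 to 7.65 in WT and 18.5 to 19.8 in libraries labelled Mtgr1-/-). Its call was lost at both enteroid days when the mouse number was added as a replicate block (adjusted p = 0.0529 and 0.0603, limma) and with DESeq2 (adjusted p = 0.091 and 0.188). The 250 bases before the start of 4 genes that rose are shown, 5′ to 3′ on the gene's strand, with the match in capitals or, in Cyp2c66, with the 9 bases that differ from it by A9C (position counted from 1 at its 5′ end, Cyp2c65 first).
Cyp3a11 (chr5:145879855-145880104, - strand): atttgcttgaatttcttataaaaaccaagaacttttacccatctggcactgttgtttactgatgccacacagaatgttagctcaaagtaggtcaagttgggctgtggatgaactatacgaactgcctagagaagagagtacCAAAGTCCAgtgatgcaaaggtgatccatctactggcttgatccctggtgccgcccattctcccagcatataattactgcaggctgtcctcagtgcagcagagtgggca
Cyp2c65 (chr19:39060756-39061005, + strand): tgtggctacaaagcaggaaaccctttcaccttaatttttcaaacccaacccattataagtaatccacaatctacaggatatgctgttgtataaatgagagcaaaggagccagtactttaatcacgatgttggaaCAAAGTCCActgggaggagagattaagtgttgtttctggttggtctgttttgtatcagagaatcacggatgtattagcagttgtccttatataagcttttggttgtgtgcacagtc
Cyp2c66 (chr19:39113648-39113897, + strand): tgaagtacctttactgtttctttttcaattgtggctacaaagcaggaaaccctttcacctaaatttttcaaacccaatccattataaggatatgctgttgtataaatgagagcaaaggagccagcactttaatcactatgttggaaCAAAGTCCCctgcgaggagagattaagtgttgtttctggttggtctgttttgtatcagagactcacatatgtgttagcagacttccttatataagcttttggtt
Cyp2c68 (chr19:39741102-39741351, - strand): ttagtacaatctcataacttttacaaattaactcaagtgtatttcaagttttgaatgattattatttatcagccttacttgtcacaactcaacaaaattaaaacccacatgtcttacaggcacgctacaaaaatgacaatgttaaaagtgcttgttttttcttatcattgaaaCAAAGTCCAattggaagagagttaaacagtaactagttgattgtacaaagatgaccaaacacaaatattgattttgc
The match started 109 bases before the transcript start in Cyp3a11, 116 in Cyp2c65 and 77 in Cyp2c68. Cyp2c66, which differs from the match by 1 letter at 104 bases before its start, had log2 fold changes of 1.29 ± 0.20 and 1.22 ± 0.10 in enteroids, beside 1.24 ± 0.15 and 1.19 ± 0.14 for Cyp2c65. The pair share sequence: 19.5% of the 50-base words of Cyp2c66 also occur in Cyp2c65, and 20.2% of those of Cyp2c65 in Cyp2c66. A match in letters is not a bound site. Among the receptors measured, Hnf4g was higher in enteroids labelled Mtgr1-/- (1.14 ± 0.11 at day 1 and 0.98 ± 0.20 at day 3, adjusted p = 0.000217 and 0.0036, limma), while Hnf4a had 0.23 and 0.11 (adjusted p = 0.0717 and 0.413). A part of either receptor in the P450 differences was not tested.

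Other CYP2 genes followed the same direction in enteroids. Cyp2j6, which oxidizes arachidonic acid, had 7422, 6142 and 5386 normalized counts in WT at day 1 and 17266, 16305 and 19617 in libraries labelled Mtgr1-/- (mean 2.81-fold higher, adjusted p = 0.000189, limma). Cyp2d26 rose by 1.11 ± 0.22 and 1.05 ± 0.22 on the log2 scale at day 1 and day 3. Cyp2r1, a vitamin D hydroxylase, had 34.8, 30.2 and 42.7 in WT at day 1 against 100.3, 70.2 and 82.7 (1.21 ± 0.24, adjusted p = 0.00387), and 1.69 ± 0.31 at day 3 (adjusted p = 0.00223). Cyp2s1, which acts on retinoids and other lipids, was higher at day 1 (0.49 ± 0.09, adjusted p = 0.00204) and overlapped with WT at day 3 (-0.21 ± 0.16, adjusted p = 0.292).

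Cyp2e1 (ENSMUSG00000025479.9, chromosome 7, 140763739 to 140774987, plus strand), which oxidizes ethanol and small organic molecules, went the other way. At day 1 its normalized counts were 57.6, 84.4 and 83.0 in WT and 1.17, 3.79 and 2.21 in libraries labelled Mtgr1-/- (-4.54 ± 0.42, adjusted p = 0.0002, limma). WT day 3 libraries had 44.8, 73.0 and 46.5, against 0, 2.98 and 4.49 (-4.28 ± 0.64, adjusted p = 0.000887). In crypts they were 12.5, 10.9 and 38.0 against 9.42, 9.51 and 3.05, which did not pass (adjusted p = 0.386). The 3 groups labelled Mtgr1-/- were thus each below their WT group, at few counts, and it passed the filter through its WT level alone. Its promoter is shown with those of Cyp1a1 and Cyp2b10.

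CYP1 genes are the standard targets of the aryl hydrocarbon receptor and oxidize polycyclic aromatic compounds. Cyp1a1 (ENSMUSG00000032315.6, chromosome 9, 57687928 to 57703824, plus strand) varied widely between mice. In crypts it had 202, 155 and 9.21 normalized counts in WT and 0.942, 173 and 194 in libraries labelled Mtgr1-/-, so that 1 library of each genotype was low. At day 1 it had 282, 115 and 531 in WT against 2208, 473 and 1125, which overlapped (2.03 ± 0.66, adjusted p = 0.0291, limma). That call was lost when either of the libraries numbered 1, the WT library numbered 2 or the library labelled Mtgr1-/- numbered 3 was left out (adjusted p = 0.0639 to 0.0935). At day 3 the counts were 41.2, 11.6 and 31.9 in WT against 496, 216 and 423, with no overlap (3.78 ± 0.48, adjusted p = 0.000398). Cyp1b1 overlapped at day 1 (0.80 ± 0.48, adjusted p = 0.187) and was apart at day 3, with 14.3, 8.91 and 11.6 in WT against 198, 120.3 and 154 (3.64 ± 0.27, adjusted p = 3.5e-05). Cyp1a2 reached at most 24.5 counts.

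Other genes known to be driven by the aryl hydrocarbon receptor formed a list of 8, of which 2 were higher at day 1 and 6 at day 3, none lower, beside 30% and 29.9% of all genes tested, with median log2 fold changes of 0.30 and 1.44. Aldh3a1 had 0, 0 and 3.87 normalized counts in WT at day 3 and 119, 54.7 and 47.2 in libraries labelled Mtgr1-/-, and it was tested only because of the latter. Nqo1 had 2898, 2614 and 3258 against 6142, 5894 and 6684 (1.10 ± 0.10, adjusted p = 8.13e-05, limma). The difference between the days did not pass for Nqo1 (0.84 ± 0.35, adjusted p = 0.551, limma). Ahr itself was higher by 0.48 ± 0.11 and 0.60 ± 0.09 on the log2 scale at day 1 and day 3. The core of the response element to which this receptor binds, GCGTG on either strand, was in 22.7% of P450 windows and in 32.4% of all windows. The 250 bases before the start are shown for Cyp1a1 and Cyp2b10 with this core in capitals, and for Cyp2e1, which holds none, with the letters TATAAA in capitals.
Cyp1a1 (chr9:57697363-57697612, + strand): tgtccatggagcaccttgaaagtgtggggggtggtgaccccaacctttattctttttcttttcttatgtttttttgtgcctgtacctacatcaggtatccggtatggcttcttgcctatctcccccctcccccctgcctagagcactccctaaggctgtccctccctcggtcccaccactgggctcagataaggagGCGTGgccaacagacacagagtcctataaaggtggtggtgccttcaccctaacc
Cyp2b10 (chr7:25897408-25897657, + strand): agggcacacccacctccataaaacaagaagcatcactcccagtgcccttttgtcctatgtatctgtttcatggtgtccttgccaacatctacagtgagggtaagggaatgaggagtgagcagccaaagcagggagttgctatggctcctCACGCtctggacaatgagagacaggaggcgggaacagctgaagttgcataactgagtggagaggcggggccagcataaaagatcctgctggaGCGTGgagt
Cyp2e1 (chr7:140763569-140763818, + strand): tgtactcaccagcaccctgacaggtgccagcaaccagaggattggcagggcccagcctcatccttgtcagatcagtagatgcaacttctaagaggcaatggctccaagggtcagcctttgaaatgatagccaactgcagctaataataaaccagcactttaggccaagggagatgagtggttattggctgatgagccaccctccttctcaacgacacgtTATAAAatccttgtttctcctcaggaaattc
The core started 54 bases before the start in Cyp1a1, and 101 and 9 bases before it in Cyp2b10. TATAAA was in 36% of P450 windows and 13.6% of all windows.

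CYP4 genes hydroxylate the ends of fatty acids and related lipids. At day 1, 6 of 9 tested were higher, and at day 3, 5 of 9, with none lower. The shares of all genes tested that were higher were 30% and 29.9%. With a mean of at least 10 in both genotypes, 6 of 8 were higher at day 1 and 4 of 8 at day 3, beside 30.4% and 29.7%. Cyp4f14 (chromosome 17, 32905070 to 32917342, minus strand) had 10151, 9816 and 7661 normalized counts in WT at day 1 and 18239, 19735 and 25548 in libraries labelled Mtgr1-/- (1.20 ± 0.16, adjusted p = 0.000754, limma). At day 3 its counts were 10002, 10012 and 11141 against 17361, 34754 and 18296, and the library numbered 2 stood well above the other two. The same library was the highest of its group for Cyp4b1, Cyp4v3, Cyp2d22 and Cyp2j6, and the first 3 of these did not pass at day 3 (adjusted p = 0.0644, 0.226 and 0.144) after passing at day 1. Cyp4f13 and Cyp4f40 were higher at both times, by 1.74 ± 0.13 and 1.64 ± 0.14 at day 1 and 1.06 ± 0.16 and 1.31 ± 0.14 at day 3. Cyp4a10, a target of the fatty acid receptor Ppara, overlapped at day 1, where it did not pass without the replicate block and did with it (1.98, adjusted p = 0.0209, limma). It had 2.69, 0.891 and 0 in WT against 27.3, 53.7 and 29.2 at day 3, and was tested there only because of the latter. It shares 29.8% of its 50-base words with other genes.

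Of the genes for sterols, Cyp27a1 (ENSMUSG00000026170.6, chromosome 1, 74713574 to 74737892, plus strand), a mitochondrial sterol hydroxylase of bile acid synthesis, was higher and Cyp39a1, an oxysterol hydroxylase, was lower. Cyp27a1 had 94.2, 81.2 and 140.0 normalized counts in WT at day 1 and 931, 719.7 and 1161 in libraries labelled Mtgr1-/-, a mean 8.92-fold higher (3.16 ± 0.24, adjusted p = 0.000109, limma). The day 3 difference was 2.37 ± 0.14 (limma adjusted p = 1.51e-05). In crypts it overlapped (0.44 ± 0.63, adjusted p = 0.769), and the libraries numbered 3 were the highest of both genotypes, at 656 and 585. Cyp39a1 (chromosome 17, 43667425 to 43751431, plus strand) had 197, 195 and 165 at day 1 in WT against 104, 105 and 79.4 (-0.95 ± 0.18, adjusted p = 0.00294), and a mean of 0.515 times the WT level at day 3 (adjusted p = 0.00633).

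Retinoic acid and vitamin D genes of the family were mostly low. Cyp26b1, which degrades retinoic acid, had 23.3, 24.9 and 17.4 normalized counts in WT at day 3 and 54.6, 125 and 71.9 in libraries labelled Mtgr1-/- (1.82 ± 0.33, adjusted p = 0.00223, limma). At day 1 it overlapped, with 0, 40.8 and 14.3 in the latter. Cyp26a1 was at 2.03 or less in every library that lists it, Cyp24a1 at 1.14 or less and Cyp27b1 at 7.17 or less. Of 18 other genes of retinoid metabolism, 8 of 14 tested were higher and 1 lower at day 1, and 11 of 14 higher and 1 lower at day 3. Of all genes tested, 30% were higher at day 1 and 29.9% at day 3. Lrat is on this list and on that of genes driven by the aryl hydrocarbon receptor. Aldh1a1, which makes retinoic acid, had 8809.5, 8667 and 12059.7 in WT at day 3 against 33059, 49948 and 34085 (1.98 ± 0.19, adjusted p = 0.000111). The receptor gene Rarb had 23, 29.7 and 21.9 normalized counts in WT crypts and was listed at 0 in the 3 crypt libraries labelled Mtgr1-/-, with 73.5, 74.8 and 63.9 against 0, 0 and 2.25 at day 3, and it was tested only because of its WT level. Among 5 tested genes of the vitamin D response outside the family, 5 were higher at day 1 and 4 at day 3, beside the same shares of all genes. Vdr is on this list and on that of the receptor genes below. Trpv6, a calcium channel, had 0, 0 and 1.94 in WT at day 3 against 33.0, 16.9 and 14.6, and was tested only because of the latter.

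Genes for partners of P450 enzymes were also mostly higher in enteroids labelled Mtgr1-/-. Of 7 genes for electron donors, 5 were higher at day 1 and the same number at day 3, and none was lower. Over all genes tested, 30% were higher at day 1 and 29.9% at day 3, which is the background for every list in this paragraph. Por had 5228, 4895 and 5151 normalized counts in WT at day 1 and 15992, 11093 and 18738 in libraries labelled Mtgr1-/- (1.55 ± 0.18, adjusted p = 0.000413, limma), and 1.53 ± 0.13 at day 3 (adjusted p = 6.38e-05). Fdx1, the mitochondrial ferredoxin, was higher by 1.53 ± 0.19 and 0.81 ± 0.09, while Fdxr did not pass (adjusted p = 0.168 and 0.0788). Both tested epoxide hydrolases, which convert the epoxides that CYP2 enzymes make, were higher: Ephx2 by 2.49 ± 0.21 at day 1 and 2.13 ± 0.15 at day 3, and Ephx1 by 1.59 ± 0.16 and 1.41 ± 0.08. Of 18 receptor genes, 11 were higher and 2 lower at day 1, and 12 higher and 2 lower at day 3. Nr1i2 was at 1.16 ± 0.11 and 0.92 ± 0.08 and Nr1i3 at 1.05 ± 0.10 and 0.91 ± 0.15. The receptor list includes Ahrr and Vdr, which were also counted with the aryl hydrocarbon receptor targets and the vitamin D response. In crypts, none of the electron donors or epoxide hydrolases passed, and Rarb was the only receptor gene that did.

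The second question is whether the genotype difference of a gene changed with plating. It was tested as an interaction over the 18 libraries with mouse as a random effect, and 45 members could be tested. From crypts to day 1, the difference became more positive for 26 of 45 members and more negative for 2 at an adjusted p below 0.05 (limma), beside 18.7% and 19.4% of all 13430 genes (38.1% in either direction). It moved by 5.21 ± 0.75 on the log2 scale for Cyp3a11 (adjusted p = 0.000554), by 3.72 ± 0.57 for Cyp2b10 (adjusted p = 0.000741), by 3.13 ± 0.44 for Cyp2c66 (adjusted p = 0.000446) and by 2.86 ± 0.34 for Cyp3a13 (adjusted p = 0.000254). The 2 that became more negative were Cyp2e1 (-3.27 ± 0.87, adjusted p = 0.00913) and Cyp20a1 (-0.77 ± 0.23, adjusted p = 0.0179), which itself passed at no single time. The Cyp2e1 call was lost with a pseudocount of 0.1 and without WT mouse 2 (adjusted p = 0.0652 and 0.0619, limma). Cyp20a1 lost its call without WT mouse 3 or mouse 1 or 3 labelled Mtgr1-/- (adjusted p = 0.0543 to 0.0995, limma). From day 1 to day 3, 0 of 45 members passed, and 4 of all genes did (0.0298%, with 0.0223% more positive and 0.00745% more negative). At an unadjusted p below 0.05, 2 members became more positive and 4 more negative between these days, where 7.85% of all genes passed in either direction. Cyp1b1 had the smallest p among them, with a change of 2.84 ± 0.63 (adjusted p = 0.111, limma), and was singled out after its value was seen. Without the mouse labelled Mtgr1-/- numbered 2, 1 member became more positive and 4 more negative, beside 460 and 416 of all 13430 genes.

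**Figure D5:**
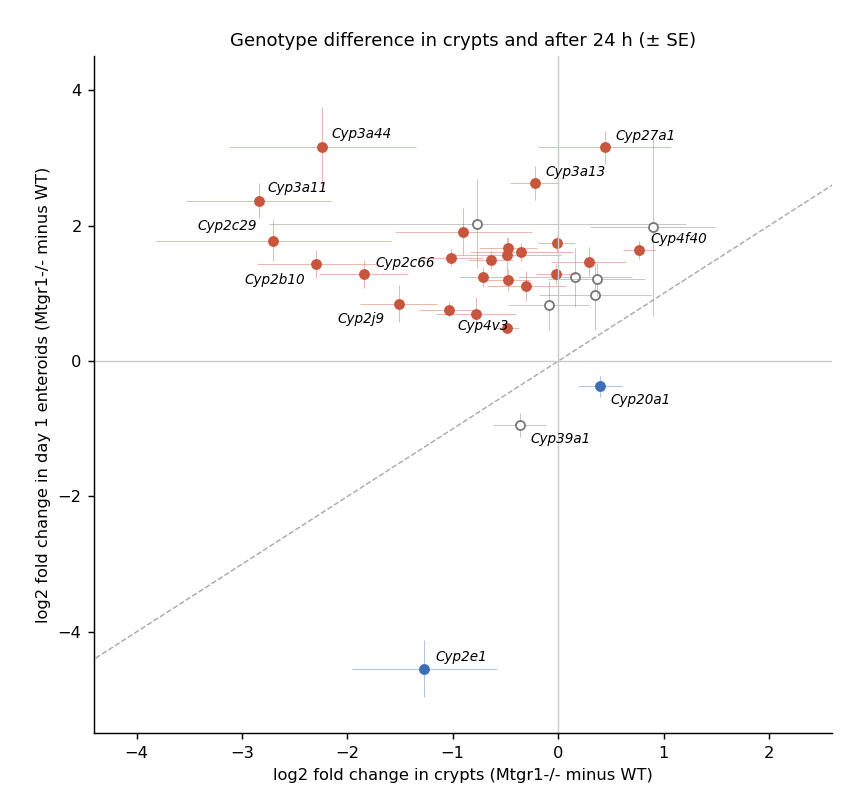
Each point is 1 P450 gene tested in both crypts and day 1 enteroids, with its log2 fold change (libraries labelled Mtgr1-/- minus WT) in crypts on the horizontal axis and at day 1 on the vertical axis (bars ± SE, 3 libraries a group; dashed line, equal values). Filled points passed the interaction test, red for a more positive and blue for a more negative difference at day 1, and Cyp3a11 lies at -2.84 in crypts and 2.37 at day 1.

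The abundant members moved together at day 1. All 14 members with a mean of at least 1000 normalized counts were higher, with log2 fold changes of 0.76 to 2.63, where 43.7% of all 5197 genes of that level were higher. Of the 26 below that level, 14 were higher and 2 lower, where 20.4% of all 7390 genes of that level were higher. At day 3, 13 of 15 abundant members were higher, Cyp2s1 and Cyp4v3 being the exceptions, beside 38.3% of genes of that level. In crypts, 12 of the 14 abundant members had a negative log2 fold change, and the positive ones were Cyp4f16 and Cyp4f40. The share of negative values was not counted over all genes tested in crypts, whose median log2 fold change was 0.01. Over the enteroid days, 21 members were higher at both, which is 75.0% of those higher at day 1 and 77.8% of those higher at day 3. The same overlap was not counted over all genes, so it is not shown to be particular to P450 genes. The 2 time points use separate libraries of the same mice.

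Markers of cell types also differed between the genotypes, and their part in the P450 results was not tested. In bulk libraries, fewer cells of a type and less RNA per cell cannot be told apart. Of 20 enterocyte markers, 19 were higher and 1 lower at day 1, 19 higher at day 3, and 1 lower in crypts. Their summed level was 15403 to 18633 CPM in WT and 29207 to 39809 in libraries labelled Mtgr1-/- at day 1, 10705 to 12422 and 21895 to 33987 at day 3, and overlapped in crypts at 30828 to 35572 and 24359.6 to 37279. Sis, which encodes sucrase-isomaltase, was the marker that was lower, with 192696, 222520.3 and 205795 normalized counts in WT crypts against 4362, 15132 and 11322. Of 15 stem cell markers, 3 were lower in crypts, all at day 1 and 14 at day 3. In crypts these markers summed to 1445 to 1855 CPM in WT and 295 to 568 in libraries labelled Mtgr1-/-. However, 12 of them did not pass there, and their median log2 fold change in crypts was -0.29. Of 7 tuft cell markers tested in crypts, 1 was higher, with sums of 55.5 to 65.0 against 86.2 to 292. Of 6 tested in enteroids, 4 were lower at day 1 (20.0 to 29.6 against 9.77 to 15.9) and 5 at day 3 (21.6 to 24.9 against 9.51 to 11.9). The 8 goblet markers tested were lower at each time. Of 10 enteroendocrine markers, all were lower in crypts and at day 3, and 9 at day 1. All 9 Paneth markers were lower on both enteroid days and none passed in crypts, where their summed level was 5038 to 6753 in WT and 51.4 to 1871 in the others. Immune markers summed to 1592 to 2094 CPM in WT crypts and 170.7 to 298 in crypts labelled Mtgr1-/-. Of the 13 immune markers tested in crypts, 1 was lower and 12 did not pass. Hepatocyte and pancreas markers, which could carry P450 transcripts of other organs, summed to at most 12.2 in any library. Over all genes tested, 1.58% were higher and 3.15% lower in crypts, 30% and 28.9% at day 1, and 29.9% and 29.1% at day 3.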

How the data were processed

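The 18 libraries were made from poly(A) RNA with a stranded kit and read as single 50 bp reads. The authors trimmed reads with fastp 0.20.0, quantified them with Salmon 1.3.0 against GENCODE vM21 (GRCm38) and scaled them with DESeq2 1.26.0. The deposited values are a signal: gene counts divided by 1 size factor per library, in a separate table for each time. The tables also hold the authors' fold changes and p-values, which were not used. All 18838 gene IDs matched GENCODE vM21.

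Genotypes were compared within each table with limma 3.58.1 (R 4.3.3; lmFit, eBayes with trend) on log2(value + 1), for genes with a mean of at least 10, with Benjamini-Hochberg adjustment over all of them and a two-sided threshold of 0.05. Fold changes are on that scale and understate the change of low genes. The interaction used all 18 libraries with mouse as a random effect. Whole reads (tolerance 1e-06) were recovered for 16 libraries and tested with edgeR 4.0.16 and DESeq2 1.42.0, leaving out the WT crypt library numbered 2 and the day 3 library labelled Mtgr1-/- numbered 2. The limma step was tested on simulated data. Tables and plots were made with Python 3.11.15, numpy 2.4.6, pandas 2.3.3 and matplotlib 3.10.9.

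Mouse numbers come from the labels. At day 1, same-numbered libraries of the 2 genotypes deviated together (correlations of 0.116, 0.231 and 0.216), so the numbers were taken to pair the samples there. Unless the replicate block is named, the values given at each time come from fits without this pairing. The alternatives were other pseudocounts, no filter, quantile normalization, no trend, a mouse block, count tests and leaving out libraries. The members and lists were chosen with earlier results of these data known. Named genes were a fixed set, up to 8 of the largest changes each way at a mean of at least 50, members past an interaction test, and list genes with large changes.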

Additional observations from a re-analysis of the deposited data

Results flagged for a closer look

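These results are listed because the difference between genotypes itself differed between crypts and day 1 enteroids, by the limma interaction test at an adjusted p below 0.05. Each value is the log2 fold change at day 1 minus that in crypts, both taken as libraries labelled Mtgr1-/- minus WT. Among CYP3 genes it was 2.86 for Cyp3a13, 5.21 for Cyp3a11, 2.15 for Cyp3a25 and 5.40 for Cyp3a44. Among Cyp2c genes it was 2.81 for Cyp2c23, 4.48 for Cyp2c29, 2.04 for Cyp2c55, 1.95 for Cyp2c65, 3.13 for Cyp2c66 and 1.31 for Cyp2c68. Among other CYP2 genes it was 3.72 for Cyp2b10, 1.99 for Cyp2d10, 2.55 for Cyp2d22, 1.41 for Cyp2d26, 5.52 for Cyp2j5, 2.14 for Cyp2j6, 2.36 for Cyp2j9, 0.98 for Cyp2s1, 1.48 for Cyp2u1 and -3.27 for Cyp2e1. Among CYP4 genes it was 1.96 for Cyp4b1, 1.75 for Cyp4f13, 1.67 for Cyp4f14, 1.18 for Cyp4f16, 0.87 for Cyp4f40 and 1.80 for Cyp4v3. The remaining values were 2.72 for Cyp27a1 and -0.77 for Cyp20a1.

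The value of Cyp2c29 rests in part on the WT crypt library numbered 3, which held 1714 normalized counts against 62.3 and 139.6 in the other WT crypt libraries. Cyp2d10 lost its call with a pseudocount of 0.1 (adjusted p = 0.0934, limma). It also did so without any 1 of the WT mice, or mouse 1 or 3 labelled Mtgr1-/- (adjusted p = 0.0746 to 0.162, limma). It shares 35.8% of its 50-base words with other genes. Leaving out certain single mice also removed the calls of Cyp2c55, Cyp2d26, Cyp2u1, Cyp4b1, Cyp4f16, Cyp2e1 and Cyp20a1 (adjusted p = 0.0543 to 0.146, limma). Cyp2j5 and Cyp3a44 had few counts: Cyp2j5 had 10.5, 2.97 and 11.5 in WT crypts and 0, 0 and 1.02 in crypts labelled Mtgr1-/-, then 2.74, 1.04 and 0.838 against 17.5, 17.1 and 13.2 at day 1.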

How the results depend on the processing

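In crypts, the count of lower members moved from 0 to 6 with the replicate block by mouse number, 6 with DESeq2 and 7 without both libraries numbered 3, and leaving out 1 library gave 0 to 7. The block used mouse numbers that did not all pair in crypts, where same-numbered libraries correlated at 0.0764, 0.274 and 0.346. The count of higher members in crypts fell from 1 to 0 without a trend, with edgeR and without both libraries numbered 1 or both numbered 2, and leaving out 1 library gave 0 to 1. Leaving out 1 library gave 24 to 27 higher and 2 to 3 lower at day 1, 25 to 27 higher and 2 to 3 lower at day 3, 21 to 26 more positive and 1 to 2 more negative from crypts to day 1, and 0 to 1 and 0 to 4 from day 1 to day 3. Lower members numbered 4 at day 1 with no filter and 4 at day 3 with DESeq2. With a pseudocount of 0.1, 1 member was more negative from crypts to day 1, and with a pseudocount of 8, 1 was more positive from day 1 to day 3. With the replicate block, 27 members were higher and 2 lower at day 1, where Cyp4a10 gained a call (adjusted p = 0.0209) and Cyp2c40 and Cyp2j9 lost theirs (adjusted p = 0.0529 and 0.0563, limma). Single values that reversed when 1 mouse was left out were Cyp4f15 (range -0.016 to 1.95) and Cyp4a10 (-0.87 to 2.36) from crypts to day 1, each without the WT mouse numbered 3, and Cyp26b1 (-0.20 to 1.90) from day 1 to day 3, without the mouse labelled Mtgr1-/- numbered 1. The cause of these changes was not tested. With 3 libraries a group, members under 10 normalized counts were not tested, and the p-values measure the spread between these mice.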

Other observations

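Retinoid carriers and enzymes outside the P450 family differed between the genotypes in enteroids. Aldh1a3, which makes retinoic acid, had 133.5, 60.4 and 55.3 normalized counts in WT at day 1 and 89.8, 156 and 51.8 in libraries labelled Mtgr1-/-, which overlapped. At day 3 it had 17.0, 19.6 and 13.6 against 210.5, 187 and 211 (log2 fold change 3.54 ± 0.21, adjusted p = 1.26e-05, limma). The change of its genotype difference between these days did not pass (3.31 ± 0.92, adjusted p = 0.22, limma). Rbp2, a retinol carrier of enterocytes, was higher on both days, by 2.08 ± 0.24 and 2.10 ± 0.20. Stra6l, a retinol transporter, was lower on both, with 747, 615 and 518 in WT and 198, 88.5 and 209 in libraries labelled Mtgr1-/- at day 3.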
